A study of Mus musculus with 6 samples.

Results

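Esrrb, Tfcp2l1, Tbx3, Zfp42, Nr0b1 and Prdm14 are 6 genes of the naive pluripotency programme, and their RNA was followed here in single cells of mouse embryos from the blastocyst to the egg cylinder. The members were taken by symbol from the gene table of the 6 libraries, and all 6 were found among the 32285 genes listed. All of them encode nuclear regulators. Esrrb (ENSMUSG00000021255) lies at chr12:86361117-86521628 on the plus strand of GRCm38. Tfcp2l1 (ENSMUSG00000026380) lies at chr1:118627945-118685168, plus strand, and overlaps Gm22094 and Gm28882 on the minus strand and Gm23497 on the plus strand. Tbx3 (ENSMUSG00000018604) lies at chr5:119670669-119684724, plus strand, and overlaps the antisense gene Tbx3os1. No source used here says how reads were assigned by strand, so Tbx3 and Tbx3os1 reads may not be fully separated. The same holds for Tfcp2l1 and the genes on its other strand. Zfp42 (ENSMUSG00000051176) lies at chr8:43295063-43306980 on the minus strand. Nr0b1 (ENSMUSG00000025056) lies at chrX:86191764-86195947 on the plus strand, and Prdm14 (ENSMUSG00000042414) at chr1:13113457-13127163 on the minus strand.

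In the mouse blastocyst the inner cell mass gives rise to the epiblast, from which the body forms, and to the primitive endoderm, which becomes visceral and parietal endoderm. The outer layer, the trophectoderm, becomes the trophoblast, whose polar part forms the extraembryonic ectoderm and the ectoplacental cone and whose other cells become giant cells. Naive pluripotency is the state of the preimplantation epiblast and of mouse embryonic stem cells, and it is held by a network of transcription factors downstream of LIF and Stat3 that is switched off around implantation. Several of these factors also have known roles elsewhere: Esrrb is needed in trophoblast for the placenta, and Prdm14 is needed for germ cells.

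Dams were B6SJLF1/J and sires B6CBAF1/J, and no mutation or drug treatment was under study. Embryos of the first 2 stages (E3.5 and E4.5) were flushed from uteri of superovulated dams 4 weeks old, and those of the 4 later stages (E4.75 to E5.5) were dissected from dams 7 weeks old. Cells of E3.5, E4.5 and E5.5 went through a 20 µm filter and those of the other 3 stages did not, so stage is tied to collection and, in part, to filtering. Each stage is 1 library of droplet-captured 3′ RNA from an unstated number of pooled embryos, so no comparison has replicates and no p-value is given. Cells are not replicates here, and every interval below covers counting error alone.

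The files held 42328 cell barcodes with 391375562 UMIs (unique molecular identifiers, each 1 captured RNA molecule). After filters 20820 cells remained, which made 88, 962, 2497, 5262, 3908 and 8103 cells in stage order (E3.5 first, E5.5 last). The median depth of a kept cell was 18096, 10485, 31093, 17310, 19750 and 5104 UMIs at these stages, and 68.1% of the E5.5 barcodes fell below the minimum of 1500 genes. In all, 47 barcode sequences were shared by 2 or more libraries, which touches 94 cells. Clusters were named only from marker genes, none of them a member, so epiblast, endoderm, trophoblast and giant cell below stand for epiblast-like, endoderm-like, trophoblast-like and giant cell-like clusters. The 44 inner cells of E3.5 carried both epiblast and endoderm markers and are kept apart. Markers that named the clusters were also summed per class. The 9 epiblast markers came to 259 to 910 CPM (UMIs per 1000000 UMIs of a class) in trophoblast, 320 to 542 CPM in endoderm and 2044 to 3261 CPM in epiblast. The 10 endoderm markers came to 7809 to 10639.8 CPM in endoderm, 30.4 to 341 CPM in trophoblast and 35.8 to 83.7 CPM in epiblast. A higher sum of a list in its own class follows from the naming and is not a finding. The 4 clusters that carried markers of several lineages (1651 of the E5.5 cells, 35 to 122 cells at E4.75 to E5.25) were left out of the classes.

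Of the cell types that the dissection could have carried along, 5 to 7 of 7 uterine epithelium markers had counts in trophoblast, with a sum of 265 to 409 CPM, against 78.4 to 132 CPM in epiblast. In trophoblast Krt7, Cldn3 and Wfdc2 made up most of the sum from E4.5 on, and Ltf had 2 UMIs at E4.75, 1 UMI at E5.0 and 0 UMIs at the other 4 stages. In endoderm the same list came to 11.9 to 22.1 CPM. Decidua markers summed to at most 2.07 CPM in trophoblast, 11.2 CPM in endoderm and 29.5 CPM in epiblast. Cluster 23, with 10 cells that all came from E5.25, was named decidua on 4 markers at 2-fold and is part of no class here. Endothelium markers summed to at most 90.1 CPM in trophoblast, 85.6 CPM in endoderm and 81.0 CPM in epiblast, immune markers to at most 35.9, 23.9 and 4.94 CPM, and red cell markers to at most 2.41, 1.91 and 1.81 CPM in the same 3 classes. The part of these lists in the members' levels was not tested.

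The stretches around the transcription starts are shown for the 4 of 6 genes with a start in the RefSeq set used here. That set held none for Tbx3 and Prdm14. Each stretch runs from 250 bases before to 50 bases after a RefSeq start on GRCm38.p6, 5′ to 3′ on the strand of the gene, with capitals on the motifs found.
Zfp42 start, chr8:43306960-43307259, minus strand: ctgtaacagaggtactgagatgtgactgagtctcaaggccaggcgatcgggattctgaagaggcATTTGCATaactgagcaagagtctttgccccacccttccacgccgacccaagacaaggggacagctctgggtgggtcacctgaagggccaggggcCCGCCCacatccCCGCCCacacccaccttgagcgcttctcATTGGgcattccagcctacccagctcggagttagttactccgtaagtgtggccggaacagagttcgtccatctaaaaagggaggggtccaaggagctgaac
Tfcp2l1 start, chr1:118627695-118627994, plus strand: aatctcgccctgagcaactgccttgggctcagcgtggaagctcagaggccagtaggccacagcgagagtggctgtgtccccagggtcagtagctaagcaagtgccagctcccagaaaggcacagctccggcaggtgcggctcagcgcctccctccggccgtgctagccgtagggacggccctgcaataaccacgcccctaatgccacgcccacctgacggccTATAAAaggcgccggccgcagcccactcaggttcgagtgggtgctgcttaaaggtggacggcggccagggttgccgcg
Nr0b1 start, chrX:86191525-86191824, plus strand: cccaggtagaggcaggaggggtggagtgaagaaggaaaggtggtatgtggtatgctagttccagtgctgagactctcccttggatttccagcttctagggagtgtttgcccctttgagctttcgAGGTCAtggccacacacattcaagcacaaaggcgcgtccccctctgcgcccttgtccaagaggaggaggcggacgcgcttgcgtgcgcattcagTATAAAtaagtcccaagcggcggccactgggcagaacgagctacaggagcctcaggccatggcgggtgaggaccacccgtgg
Esrrb, the downstream of its 2 starts, chr12:86421394-86421693, plus strand: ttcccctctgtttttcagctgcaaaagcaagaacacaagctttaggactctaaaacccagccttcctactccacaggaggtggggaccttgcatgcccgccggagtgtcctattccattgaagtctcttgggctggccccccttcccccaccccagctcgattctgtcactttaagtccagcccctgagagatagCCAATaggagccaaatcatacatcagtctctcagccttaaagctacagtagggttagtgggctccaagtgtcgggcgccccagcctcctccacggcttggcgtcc
On both strands, 8 motifs were searched in these windows and in the RefSeq windows of all 32851 starts: the octamer bound by Pou5f1 (ATTTGCAT), the nuclear receptor core AGGTCA and its extended form for estrogen-related receptors TCAAGGTCA, the GC box GGGCGG, the CCAAT box CCAAT, the TATA box TATAAA, the E-box CACGTG and the T-box core AGGTGTGA. Zfp42 held an octamer whose first base is at -186 from the start, a motif in 1.735% of all windows, as well as 2 GC boxes (a motif in 35.66%) and a CCAAT box (37.41%). Nr0b1 held AGGTCA at -126 (16.26% of windows) and a TATA box at -32 (13.62%). Tfcp2l1 held a TATA box at -28, and the downstream Esrrb window held a CCAAT box at -55. The other Esrrb start, at chr12:86360867-86361166, held none of the 8. The E-box (7.15%), the extended receptor motif (0.4231%) and the T-box core (1.275%) were in none of the windows of these 4 genes. A motif match describes these letters only. The 3′ libraries do not tell which start was used.

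All 6 genes had UMIs in the inner cells of the E3.5 blastocyst. Tfcp2l1, a CP2-family transcription factor, was at 353 CPM [313, 397] there, Tbx3, a T-box repressor, at 313 CPM [275, 354], and Zfp42, the zinc finger gene also known as Rex1, at 289 CPM [253, 329], where brackets hold exact Poisson 95% intervals. The orphan nuclear receptor gene Esrrb was at 103 CPM [82.3, 128]. Prdm14, a PR-domain regulator of pluripotency and germ cells, had 14 UMIs and 17.7 CPM [9.65, 29.6], and Nr0b1, which encodes the atypical nuclear receptor DAX1, had 4 UMIs and 5.05 CPM [1.37, 12.9]. Prdm14 and Nr0b1 thus rested on few molecules in these 44 cells.

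**Figure D1:**
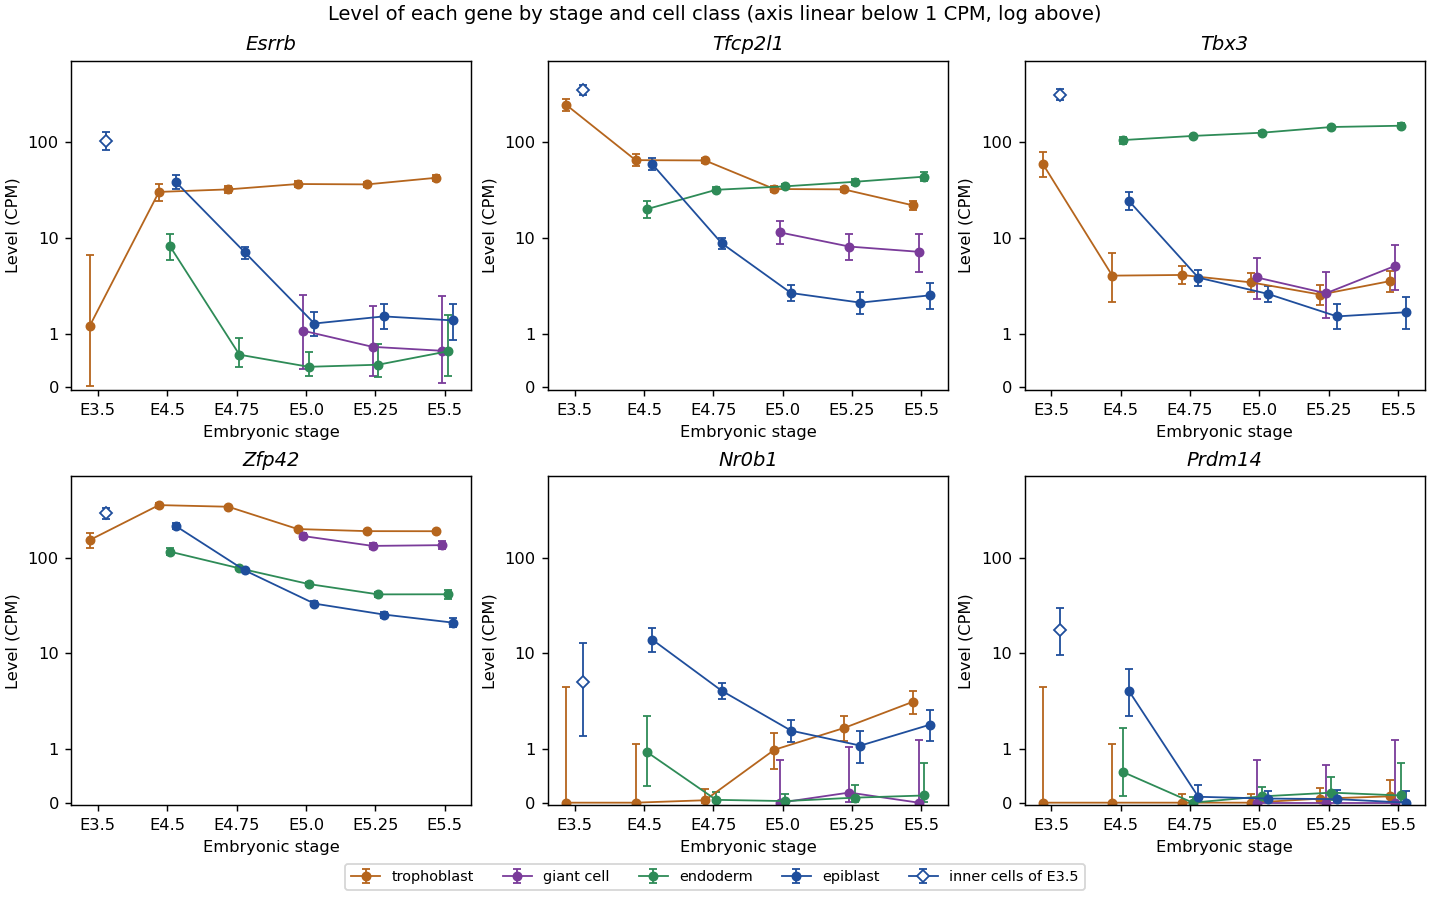
Level of each gene by stage in inner cells, epiblast, endoderm, trophoblast and giant cells. The vertical axis gives CPM of summed UMIs, logarithmic and linear below 1 CPM; stages stand at even steps on the horizontal axis; points are classes of at least 30 cells in 1 library each, and bars are exact Poisson 95% intervals. Epiblast lines end lower at E5.5 than at E4.5 for all 6 genes, while at E5.5 trophoblast has the highest level of Esrrb and Zfp42 (42.5 and 188 CPM), and endoderm that of Tbx3 (148 CPM) and Tfcp2l1 (43.7 CPM, with 21.9 CPM in trophoblast).

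In the epiblast the members fell after E4.5. A gene was counted as changed where plain CPM differed by at least 2-fold with at least 10 CPM in the higher class, a rule of size with no test, and of the 6 members 5 reached 10 CPM in E5.5 or E4.5 epiblast. All 5 were lower at E5.5 than at E4.5, where 18% of the 9276 genes compared were lower by the same rule. The falls were 27.9-fold for Esrrb [17.8, 45.5], 23.3-fold for Tfcp2l1 [16.7, 33.3], 14.5-fold for Tbx3 [9.33, 23.1], 10.2-fold for Zfp42 [8.97, 11.6] and 7.72-fold for Nr0b1 [4.79, 12.6], with conditional binomial 95% intervals. Prdm14 stayed under 10 CPM and so was not counted, with 0 UMIs at E5.5 against 14 UMIs at E4.5, at least 22.5-fold lower when E5.5 is set at 3 counts over the class. With each library clustered alone, the ratio of E5.5 to E4.5 epiblast was 0.167 for Esrrb, 0.0687 for Tfcp2l1 and 0.153 for Zfp42, against 0.0359, 0.0429 and 0.0980 here, so the order of the falls depends on the clustering. The epiblast came from cluster 16 for 1970 of 2361 cells at E5.5 and from cluster 3 at E4.5.

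In CPM, most of this fall lay between the first and the second epiblast stage. As ratios, E4.75 was lower than E4.5 by 5.46-fold for Esrrb, 6.67-fold for Tfcp2l1 and 2.92-fold for Zfp42. Part of each fold thus came at later stages. In epiblast of the 5 stages from E4.5 to E5.5, Esrrb read 38.6, 7.07, 1.29, 1.53 and 1.38 CPM, and Tfcp2l1 read 59.0, 8.84, 2.67, 2.12 and 2.53 CPM. Zfp42 fell more slowly, at 214, 73.3, 33.1, 25.5 and 21.0 CPM in the same order. All 5 measured members were lower at E4.75 than at E4.5 (10.2% of genes), a step that also crosses from flushed to dissected embryos and from cluster 3 (all 298 cells at E4.5) to cluster 14 (804 of 851 cells at E4.75). Between the unfiltered E5.25 and E4.75 libraries, Zfp42 was the 1 member above 10 CPM and was 2.88-fold lower [2.65, 3.13] (7.52% of genes lower). The E5.5 and E5.25 levels of Zfp42 differed by 0.823 as a ratio [0.723, 0.935]. With E4.75 cells instead of E4.5 cells, only Zfp42 was high enough to be counted, so the count of 5 rests on the E4.5 library.

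The step into the epiblast was not the same for each gene. In E4.5 epiblast, against E3.5 inner cells, 4 members were lower (18.4% of genes): Tbx3 by 12.8-fold [9.97, 16.6], Tfcp2l1 by 5.99-fold [4.98, 7.21], Prdm14 by 4.34-fold [1.92, 9.83] and Esrrb by 2.68-fold [2.01, 3.55]. Nr0b1 was the 1 member higher (16.4% of genes), at 13.9 CPM in E4.5 epiblast and 5.05 CPM in inner cells, a ratio of 2.76 [1.01, 10.6] that rests on 4 UMIs in inner cells. Zfp42 gave a ratio of 0.740 [0.637, 0.862]. In E4.5 endoderm, against the same inner cells, 5 members were lower (16.5% of genes). Tfcp2l1 was 17.7-fold lower [14.1, 22.3], Esrrb 12.6-fold lower [8.62, 18.7], Tbx3 2.97-fold lower [2.55, 3.46] and Zfp42 2.51-fold lower [2.15, 2.93], and Prdm14 had 3 UMIs in endoderm against 14 UMIs in inner cells.

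Esrrb, a receptor-type activator that sustains self-renewal of both embryonic and trophoblast stem cells, was found mainly in trophoblast after E4.5. It had 1 UMI in the 42 trophoblast cells of E3.5 (1.21 CPM [0.0305, 6.72]), and then read 30.3, 32.2, 36.6, 36.3 and 42.5 CPM in trophoblast of the 5 stages from E4.5 to E5.5. In trophoblast of E4.5, against E3.5, the ratio was 25.1 [4.40, 1002], with 97 UMIs over 1 UMI. In the blastocyst trophoblast was 85.8-fold lower than inner cells [15.0, 3430.4], again on 1 UMI. At E4.5 the lineages overlapped, at 30.3 CPM [24.6, 36.9] in trophoblast and 38.6 CPM [32.3, 45.8] in epiblast, a ratio of 0.784 [0.597, 1.03].

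From E4.75 on, trophoblast stood above every other class for Esrrb. The ratio of trophoblast to epiblast in the same library was 4.55 [3.87, 5.36], 28.5 [21.4, 38.7], 23.8 [17.7, 32.7] and 30.7 [20.3, 48.8] in stage order from E4.75. With each library clustered alone the E5.5 ratio was 6.52. The trophoblast level itself gave 1.40 [1.13, 1.75] as E5.5 over E4.5. In endoderm Esrrb read 8.19, 0.612, 0.384, 0.423 and 0.674 CPM from E4.5 to E5.5, and at E5.0, E5.25 and E5.5 the intervals of epiblast, giant cells and endoderm overlapped their neighbours in rank. Free RNA in the droplets can give a gene UMIs in cells that do not express it, and 4 trophoblast genes (Elf5, Ascl2, Rhox6 and Gata3) served to gauge it. The epiblast level of Esrrb was 3.51%, 4.20% and 3.26% of the trophoblast level at E5.0, E5.25 and E5.5. The 4 genes had 0.464% to 23.0%, 0.445% to 11.5% and 1.52% to 8.66% of theirs in epiblast at these stages, the upper end being that of Ascl2 each time. Without Ascl2 the upper end was 1.90%, 1.38% and 3.95%, so Esrrb lay above the other 3 genes at E5.0 and E5.25. The part of free RNA in the late epiblast reading was not tested.

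**Figure D2:**
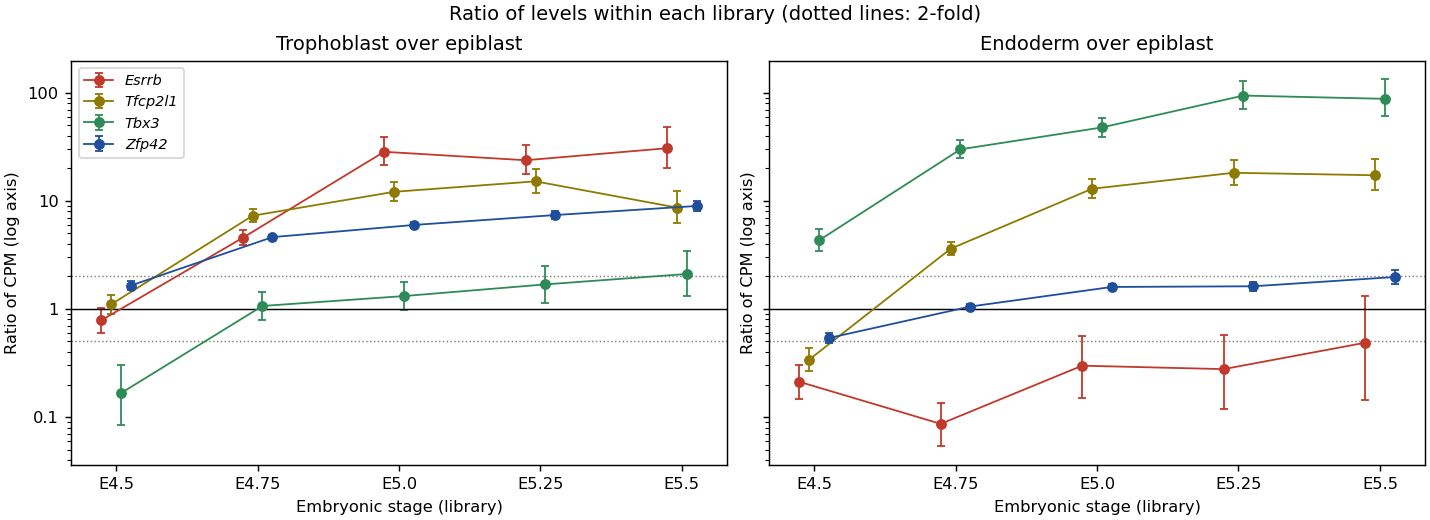
Ratio of trophoblast (left) and endoderm (right) to epiblast of the same library, by stage, on a logarithmic axis, for Esrrb, Tfcp2l1, Tbx3 and Zfp42. Bars are conditional binomial 95% intervals and the dotted lines mark the 2-fold limits. Esrrb climbs to 30.7 in trophoblast and Tbx3 to 88.0 in endoderm at E5.5, while Tfcp2l1 passes the limit in both lineages from E4.75 on.

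Single cells gave the same order for Esrrb. At E5.5, 24.5% of trophoblast cells had an Esrrb UMI (median depth 6053 UMIs). In endoderm, which served as the class low in the gene, the share was 0.321% (4230 UMIs), and in epiblast it was 0.974% (6208 UMIs). With cells thinned to 3000 UMIs, which left out 131 trophoblast, 332 endoderm and 122 epiblast cells of lower depth, the shares were 12.3% in trophoblast [10.9, 13.8], 0.0816% in endoderm and 0.715% in epiblast, in brackets the exact binomial 95% interval. At E4.5 the thinned shares were 6.72% in trophoblast and 12.1% in epiblast, and in the inner cells of E3.5 the share was 27.3%.

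Within the trophoblast, Esrrb marked the extraembryonic ectoderm, the multipotent tissue that adjoins the epiblast. It read 45.4, 45.0 and 60.0 CPM in extraembryonic ectoderm-like cells of E5.0, E5.25 and E5.5, against 5.66, 3.31 and 3.63 CPM in ectoplacental cone-like cells. The ratios were 8.01 [5.30, 12.7], 13.6 [8.54, 23.0] and 16.5 [10.5, 27.6], and Esrrb was the 1 member higher by 2-fold at each stage (4.35%, 4.96% and 7.54% of genes). Over the 3 stages other settings gave ratios of 6.07 to 49.1, all higher in extraembryonic ectoderm. Giant cells, the polyploid trophoblast cells that border the decidua, had 1.08, 0.759 and 0.685 CPM and were 42.0-fold [17.9, 130], 59.3-fold [23.1, 218] and 87.6-fold lower [24.2, 725] than extraembryonic ectoderm. Esrrb and Tfcp2l1 were the 2 members lower in giant cells at each of these stages (7.25%, 8.34% and 9.2% of genes). Most extraembryonic ectoderm-like cells of E5.5 were in cluster 9 (1267 of 1494 cells), and those of E5.0 and E5.25 in cluster 8.

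**Figure D3:**
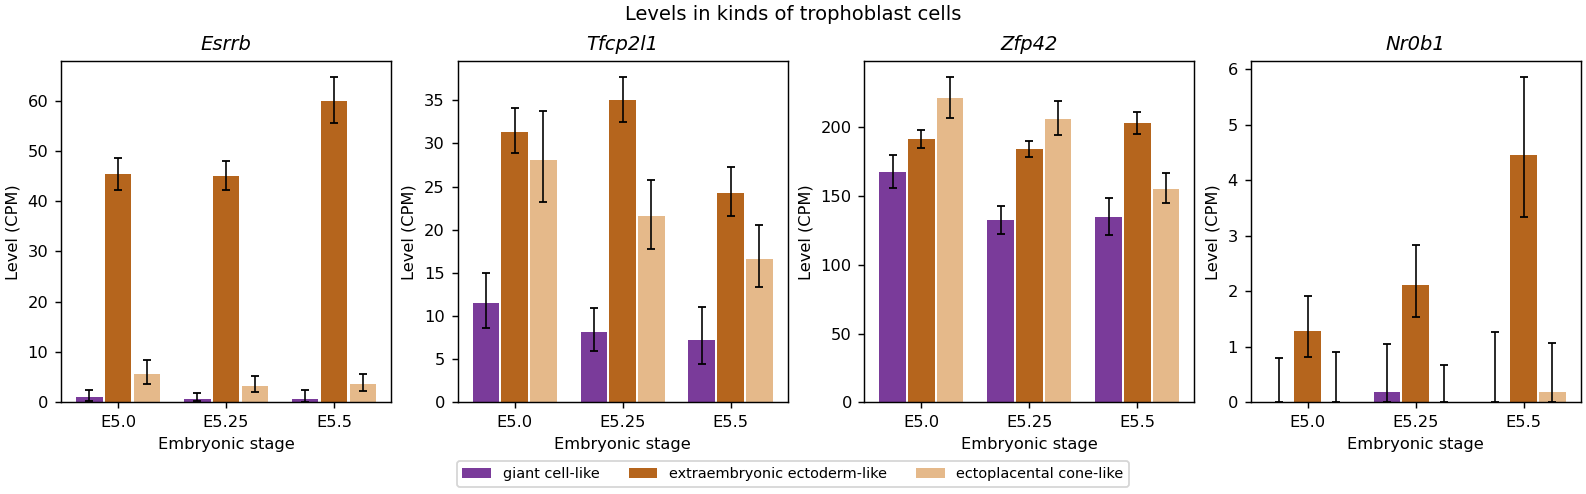
CPM of Esrrb, Tfcp2l1, Zfp42 and Nr0b1 in giant cells, extraembryonic ectoderm-like and ectoplacental cone-like cells at E5.0, E5.25 and E5.5, with exact Poisson 95% intervals. Esrrb is highest in extraembryonic ectoderm-like cells (0.685, 60.0 and 3.63 CPM at E5.5, where the intervals of giant cells and ectoplacental cone overlap), whereas Zfp42 differs by less than 2-fold between them (135, 203 and 155 CPM).

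Nr0b1 encodes a receptor without the usual DNA-binding domain that acts as a corepressor and binds Esrrb and Pou5f1 in embryonic stem cells. In trophoblast Nr0b1 had 0, 0, 1, 23, 44 and 53 UMIs from E3.5 to E5.5, which gave 0.993, 1.67 and 3.14 CPM at the last 3 stages. In epiblast it read 13.9 CPM [10.3, 18.5] at E4.5, its highest level in any class of at least 30 cells, and then 4.09, 1.57, 1.09 and 1.81 CPM at the 4 later stages. At E4.5 trophoblast had 0 UMIs, which allows up to 0.936 CPM, at least 14.9-fold lower than epiblast.

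The late trophoblast counts of Nr0b1 came from the extraembryonic ectoderm. All but 1 of the 53 UMIs at E5.5 were in extraembryonic ectoderm-like cells, at 4.46 CPM [3.33, 5.85], against 1 UMI and 0.191 CPM [0.00484, 1.06] in ectoplacental cone-like cells. At E5.0 and E5.25 extraembryonic ectoderm had 1.28 and 2.11 CPM, while the ectoplacental cone had 0 UMIs at both. Trophoblast over epiblast gave 1.52 [0.948, 2.47] at E5.25 and 1.74 [1.09, 2.82] at E5.5, both with less than 10 CPM on each side and so outside the count. Endoderm had 5, 2, 1, 2 and 1 UMIs from E4.5 to E5.5. All of these late levels were low.

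Tfcp2l1, a target of LIF and Stat3 in embryonic stem cells, was the member that kept to both extraembryonic lineages. In endoderm it read 20.0, 31.9, 34.6, 38.6 and 43.7 CPM from E4.5 to E5.5. In trophoblast it read 245, 64.9, 64.4, 32.5, 32.2 and 21.9 CPM from E3.5 to E5.5. In epiblast it fell to 2.53 CPM [1.82, 3.42] at E5.5, against 59.0 CPM [51.1, 67.6] at E4.5. Endoderm and trophoblast thus moved in opposite directions and crossed near E5.0, where their intervals overlapped.

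By the rule of size, Tfcp2l1 was the 1 member higher in E5.5 than in E4.5 endoderm, at a ratio of 2.18 [1.75, 2.75] (16.5% of genes higher), and Zfp42 the 1 member lower (11.4% of genes lower). In E5.5 trophoblast, against E4.5, Tfcp2l1 was the 1 member lower, by 2.96-fold [2.49, 3.52] (14.7% of genes), and none was higher (11.7% of genes). In E4.5 trophoblast, against E3.5, it was 3.77-fold lower [3.09, 4.59]. Trophoblast cells lay in clusters 9, 6 and 8 at E5.5 (1267, 687 and 227 of 2181 cells) and in cluster 0 at E4.5 (232 of 238 cells), which holds for the stage changes of Esrrb and Zfp42 in trophoblast as well. The 2.18 in endoderm lies near the limit: it was 1.99 under median-of-ratios scaling, 1.90 with totals that leave out mitochondrial and ribosomal genes, 1.80 with the mixed clusters kept and 1.75 with each library clustered alone. Endoderm came from cluster 2 at E4.5, where 418 of 422 cells lay, and mainly from clusters 12 and 20 at E5.5.

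Against the epiblast of the same library, Tfcp2l1 was higher in both other lineages from E4.75. Trophoblast over epiblast gave 1.10 [0.903, 1.34], 7.29 [6.35, 8.39], 12.1 [9.87, 15.0], 15.2 [11.8, 19.9] and 8.67 [6.29, 12.2] in stage order from E4.5. Endoderm over epiblast gave 0.339 [0.266, 0.432], 3.60 [3.13, 4.16], 12.9 [10.6, 16.0], 18.2 [14.1, 23.9] and 17.3 [12.5, 24.4] at the same stages. With each library clustered alone the E5.5 ratios were 5.41 in trophoblast and 8.74 in endoderm. Endoderm was therefore below epiblast at E4.5 and above it at every later stage. Giant cells held an intermediate level, at 11.5, 8.16 and 7.19 CPM from E5.0 to E5.5, lower than extraembryonic ectoderm by 2.74-fold [2.06, 3.70], 4.29-fold [3.16, 5.98] and 3.38-fold [2.17, 5.54]. Extraembryonic ectoderm over ectoplacental cone gave 1.12, 1.63 and 1.46 for Tfcp2l1 at these stages, less than 2-fold.

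A small group of cells that belongs to none of these lineages held far more Tfcp2l1. In E4.75, an unnamed cluster led by Crct1, Prap1 and Gjb2 had 1755 CPM [1600, 1920] in 35 cells, all 35 with a UMI, and it carried 6 of 7 uterine epithelium markers at 2-fold or more. It had 1287 CPM in 13 cells of E5.0 and 1703 CPM in 18 cells of E5.25. None of its cells came from E5.5. At E4.75 the 3 leading genes of that cluster were found in trophoblast at 0.0791% to 0.145% of their level in the cluster. Tfcp2l1 stood in trophoblast at 3.67% of its level there, in endoderm at 1.82% and in epiblast at 0.504%. The part of the cluster in the levels of the other classes was not tested. This cluster was singled out after its values were seen.

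Tbx3 was the endoderm gene of the set. It encodes a repressor that in embryonic stem cells supports self-renewal and can also drive primitive endoderm genes such as Gata6. In endoderm it read 105, 116, 125, 144 and 148 CPM from E4.5 to E5.5, and E5.5 over E4.5 gave 1.41 [1.27, 1.56]. In trophoblast it read 59.1, 4.06, 4.12, 3.45, 2.58 and 3.55 CPM from E3.5 on, and in epiblast 24.4, 3.87, 2.62, 1.53 and 1.69 CPM from E4.5 on. Outside the endoderm Tbx3 was thus under 6 CPM in every class from E4.75, with giant cells at 3.89, 2.66 and 5.14 CPM.

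For Tbx3, endoderm over epiblast gave 4.31 [3.42, 5.49], 30.0 [24.7, 36.8], 47.8 [39.3, 58.8], 94.3 [70.5, 129] and 88.0 [60.5, 133] in stage order from E4.5. With each library clustered alone the E5.5 ratio was 47.8. The epiblast held 3.33%, 2.09%, 1.06% and 1.14% of the endoderm level of Tbx3 at the 4 stages from E4.75. The 4 endoderm genes used to gauge free RNA (Amn, Cubn, Sox17 and Apoa1) had at most 1.34%, 1.38%, 0.556% and 1.29% of theirs in epiblast. Tbx3 was thus above these genes at each stage up to E5.25 and among them at E5.5. In E5.5 trophoblast Tbx3 stood at 2.40% of its endoderm level, with the same 4 genes at 0.973% to 1.15%. The part of free RNA in these levels was not tested. Trophoblast lost Tbx3 early: E4.5 was 14.6-fold lower than E3.5 [7.77, 29.2], and at E4.5 trophoblast was 6.01-fold lower than epiblast [3.33, 11.8].

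Counted over the members, endoderm against epiblast had 1 gene higher at E4.5 (Tbx3; 20.8% of genes) and 3 lower (Esrrb, Tfcp2l1 and Nr0b1; 15.4% of genes). At each of the 4 later stages the 2 higher members were Tbx3 and Tfcp2l1, where 27.4%, 30.1%, 30.9% and 28.9% of genes were higher. Trophoblast against epiblast had 0 higher (16.1% of genes) and 2 lower at E4.5 (Tbx3 and Nr0b1; 21.4% of genes), and then 3 higher at each later stage (Esrrb, Tfcp2l1 and Zfp42), where 15.9%, 13.1%, 12.6% and 11.6% of genes were higher. Esrrb, Nr0b1 and Prdm14 had under 10 CPM in both endoderm and epiblast from E4.75. Median-of-ratios scaling shifts the endoderm to epiblast ratios by -0.20 to -0.32 on the log2 scale, which left Tbx3 and Tfcp2l1 past the limit from E4.75 on.

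The endoderm was not uniform. Tfcp2l1 read 37.0, 40.0, 44.8 and 52.5 CPM in clusters led by general and visceral endoderm genes at the 4 stages from E4.75, against 18.2, 13.3, 6.69 and 16.9 CPM in clusters led by parietal endoderm genes. The ratios were 2.03 [1.73, 2.38], 3.00 [2.42, 3.75], 6.70 [4.43, 10.6] and 3.11 [2.15, 4.67]. Tbx3 gave 0.744 [0.699, 0.793], 1.12 [1.04, 1.21], 3.09 [2.65, 3.61] and 2.48 [2.06, 3.00] for the same contrast, so that it passed the limit at E5.25 and E5.5 alone. The members higher were therefore 1, 1, 2 and 2, where 6.47%, 9.61%, 11% and 10.8% of genes were higher. Zfp42 ran the other way without passing the limit, at 66.8, 44.1, 36.5 and 35.5 CPM in the endoderm-led clusters and 105, 87.8, 66.3 and 59.3 CPM in the parietal-led clusters. Parietal-led cells lay mainly in cluster 11 at E4.75 (309 of 322 cells). Later they lay mainly in cluster 24 (334 of 502, 218 of 271 and 301 of 409 cells). Endoderm-led cells lay mainly in cluster 13 at E4.75 (714 of 777 cells) and in clusters 12 and 20 later. Changes of these ratios with stage are tied to these changes of cluster.

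**Figure D4:**
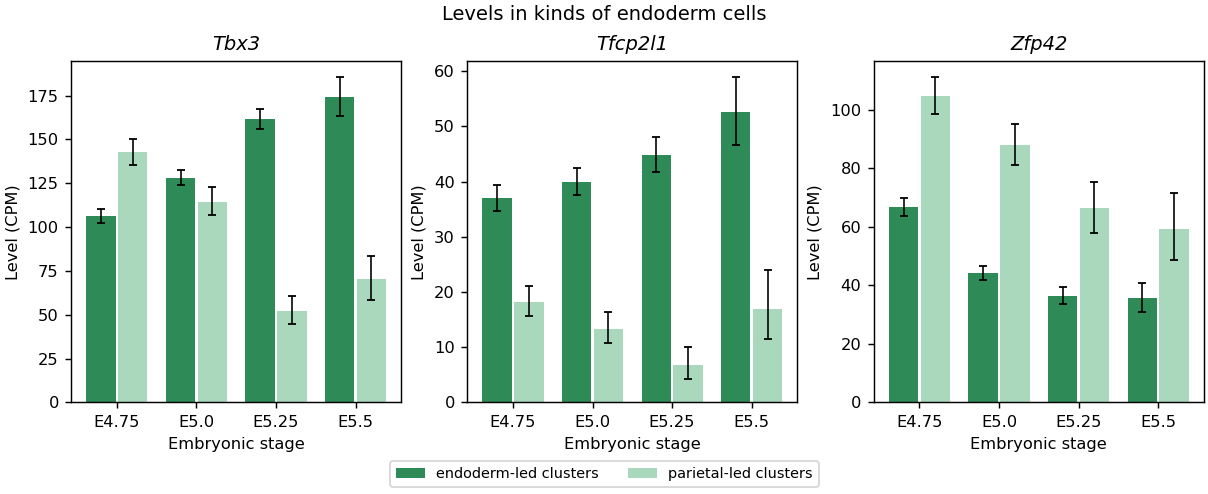
CPM of Tfcp2l1, Tbx3 and Zfp42 in endoderm-led and parietal-led clusters by stage, with exact Poisson 95% intervals; stages stand at even steps. Tfcp2l1 lies higher in the endoderm-led clusters at all 4 stages (52.5 against 16.9 CPM at E5.5), Tbx3 parts at E5.25 and E5.5 (174 against 70.2 CPM), and Zfp42 lies lower (35.5 against 59.3 CPM). The clusters that make up each kind change with stage.

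Tbx3 also differed between the main endoderm-led clusters, which are described and not tested because clustering used the other genes of the same cells. Cluster 12 had 180 CPM [171, 190], 228 CPM [218, 238] and 221 CPM [205, 238] at E5.0, E5.25 and E5.5. Cluster 20, led by Apoa1, Apob, Ttr and Apoc2, as cluster 12 is, and with Lhx1 among its first 10 genes, had 106 CPM [101, 111], 93.8 CPM [87.5, 100] and 107 CPM [93.6, 121]. The intervals did not overlap at any of the 3 stages.

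Zfp42 was the member retained most widely, and its level was highest in trophoblast. It read 152, 352, 339, 198, 188 and 188 CPM in trophoblast from E3.5 to E5.5, and 115, 77.2, 52.9, 41.3 and 41.4 CPM in endoderm from E4.5. Giant cells had 167, 132 and 135 CPM at E5.0 to E5.5. Unlike Esrrb, Zfp42 was spread over all kinds of trophoblast, with 191, 184 and 203 CPM in extraembryonic ectoderm and 221, 206 and 155 CPM in ectoplacental cone, ratios of 0.865, 0.893 and 1.31.

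In E4.5 trophoblast, against E3.5, Zfp42 was 2.32-fold higher [1.93, 2.81], and with Esrrb it made the 2 members higher at that step (14.6% of genes), while Tfcp2l1 and Tbx3 were the 2 lower (14.9% of genes). For Zfp42, trophoblast over epiblast gave 1.65 [1.50, 1.81], 4.62 [4.40, 4.86], 5.99 [5.63, 6.37], 7.40 [6.86, 7.99] and 8.98 [8.03, 10.1] in stage order from E4.5. In endoderm it was 2.78-fold lower at E5.5 than at E4.5 [2.42, 3.20], a smaller ratio than in epiblast, and endoderm over epiblast gave 0.539, 1.05, 1.60, 1.62 and 1.98 from E4.5 to E5.5. At E5.0, E5.25 and E5.5 the order of levels was trophoblast, giant cells, endoderm and epiblast, with no overlap of intervals between neighbours. E5.5 trophoblast against E4.5 gave 0.534 [0.499, 0.572], within the limit, and passed it at 0.499 under median-of-ratios scaling and 0.487 with the mixed clusters kept.

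Nearly every trophoblast cell of the deep libraries had a Zfp42 UMI. The share was 88.1%, 94.5%, 98.5%, 95.4%, 95.4% and 65.8% from E3.5 to E5.5, and with cells thinned to 3000 UMIs (shallower cells left out) it was 33.3%, 59.2%, 61.6%, 43.7%, 43.2% and 42.2%. In epiblast the thinned share was 36.6%, 20.1%, 9.65%, 7.35% and 6.57% from E4.5 to E5.5. No class lacked the gene, so no share of a Zfp42-free class can be set beside these. The epiblast level of Zfp42 was 16.7%, 13.5% and 11.1% of the trophoblast level at E5.0, E5.25 and E5.5. The 4 trophoblast genes used to gauge free RNA reached 23.0%, 11.5% and 8.66% there, each time the value of Ascl2. Without Ascl2 the upper end was 1.90%, 1.38% and 3.95%, so Zfp42 lay above the other genes of the gauge. The part of free RNA in the late epiblast level of Zfp42 was not tested.

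Prdm14, which represses FGF signalling and de novo methylation in embryonic stem cells, had at most 4 UMIs in any class other than the inner cells and the E4.5 epiblast. Trophoblast had 0 UMIs up to E5.0 and 2 UMIs in each of the last 2 libraries, and the highest level in endoderm was 0.572 CPM at E4.5. Epiblast had 14, 3, 3, 2 and 0 UMIs from E4.5 to E5.5, and the 0 UMIs in 2361 E5.5 cells allow up to 0.181 CPM. At E3.5, 3 members were lower in trophoblast than in inner cells (22.5% of genes): Esrrb, Tbx3 by 5.30-fold [3.89, 7.35] and Prdm14 by at least 4.88-fold, at 0 UMIs against 14 UMIs. Tfcp2l1 and Zfp42 did not pass the limit there, with ratios of 0.693 [0.575, 0.833] and 0.526 [0.420, 0.656].

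The number of members detected in a single cell also differed between the lineages. With cells thinned to 3000 UMIs, 77.3% of inner cells had UMIs of 2 or more of the 6 genes. In trophoblast the share was 33.3%, 16.8%, 15.1%, 8.16%, 9.04% and 9.22% from E3.5 to E5.5. In endoderm it was 10.9%, 9.85%, 7.13%, 8.20% and 8.57% from E4.5, and in epiblast 16.8%, 1.88%, 0.210%, 0.160% and 0.268%. Epiblast thus had the lowest share of these 3 classes at every stage from E4.75. Giant cells had 1.85% at E5.0 and none at the next 2 stages.

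Some E4.5 epiblast cells held UMIs of several members. Of 298 cells, 44 had UMIs of both Esrrb and Tfcp2l1, where independent shares would give 24.0, and 33 had both Tfcp2l1 and Tbx3, where independent shares would give 14.4. Both counts are described only; cells differ in depth, and its part in them was not tested. In the inner cells 41 of 44 had both Tfcp2l1 and Tbx3, close to the 40.1 of independent shares.

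Other genes of the naive network fell in the epiblast as well. From a list of 13 partners, 11 were measured in E5.5 against E4.5 epiblast: 9 were lower (Klf2, Klf4, Klf5, Nanog, Dppa3, Nr5a2, Tet2, Stat3 and Tcl1; 18% of genes) and 1 higher (Sall4; 13.1% of genes), with a median change of -1.34 on the log2(CPM + 10) scale, where the median of all genes was 0.01. The 4 most abundant at E5.5 were Sall4, a zinc finger factor with roles in many embryonic cells, at 342 CPM in E5.5 and 165 CPM in E4.5 epiblast, the growth factor gene Fgf4 at 45.7 and 88.6 CPM, Dppa3 at 23.8 and 53.4 CPM and Klf5 at 12.3 and 86.3 CPM. The list is known for this behaviour and is no independent evidence.

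In the other lineages several partners stood higher than in epiblast. In E5.5 trophoblast, against E5.5 epiblast, 5 of 8 measured partners were higher (Klf2, Klf4, Klf5, Tet2 and Stat3; 11.6% of genes) and 2 lower (Dppa3 and Fgf4; 14.9% of genes), with a median of 1.29 on the log2(CPM + 10) scale beside 0.01 for all genes. Klf2 was at 148 CPM in trophoblast and 4.70 CPM in epiblast, Klf5, a Krüppel-like factor also needed in trophectoderm, at 132 and 12.3 CPM, and Klf4 at 42.4 and 6.20 CPM. Sall4, the most abundant, was at 180 and 342 CPM. In E5.5 endoderm, against the same epiblast, 5 of 8 partners were higher (Klf2, Klf4, Klf5, Tet2 and Stat3; 28.9% of genes) and 1 lower (Fgf4; 13.1% of genes), with a median of 1.01 beside 0.23 for all genes: Sall4 was at 650 CPM in endoderm and 342 CPM in epiblast, Klf5 at 214 and 12.3 CPM, Stat3 at 141 and 8.43 CPM and Klf4 at 50.3 and 6.20 CPM. These contrasts share the epiblast cells. Fgf4 was among the epiblast markers that named the clusters, so its direction is not a finding.

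Within the trophoblast the naive partners did not follow Esrrb. In E5.5 extraembryonic ectoderm, against ectoplacental cone, 0 of 7 measured partners were higher (7.54% of genes) and 4 lower (Klf2, Klf4, Tet2 and Socs3; 6.43% of genes), with a median of -0.62 beside a median of all genes close to 0. Of 12 trophoblast stem cell factors 5 were higher there (Cdx2, Eomes, Sox2, Bmp4 and Id2) and 2 lower (Tfap2c and Gata3). The 4 most abundant were Id2 at 1004 CPM in extraembryonic ectoderm and 202 CPM in ectoplacental cone, Eomes at 311 and 72.4 CPM, Elf5 at 306 and 236 CPM and the FGF receptor gene Fgfr2 at 247 and 155 CPM. Some of these factors (Cdx2, Eomes, Elf5, Bmp4, Sox2 and Fgfr2) were among the markers that named the clusters, so their direction is not a finding.

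All 9 primitive endoderm factors listed were higher in E5.5 endoderm than in E5.5 epiblast, where 28.9% of genes were higher, with a median of 3.49 on the log2(CPM + 10) scale beside 0.23 for all genes. Of the 9, Gata4, Gata6, Sox17, Pdgfra, Foxa2 and Dab2 were among the markers that named the clusters, so their direction is not a finding. The median includes them. The 4 most abundant were Dab2 at 2628 CPM in endoderm and 36.3 CPM in epiblast, Gata4 at 436 and 3.31 CPM, Gata6 at 280 and 2.95 CPM and Foxa2 at 205 and 1.38 CPM. Of 6 germ cell factors, 2 were measured in E5.5 against E4.5 epiblast and both were lower (Prdm1 and Dppa3; 18% of genes). Of 12 relatives and cofactors of the members, 7 were measured there, of which 4 were lower (Nr5a2, Tfcp2, Prdm1 and Ncoa3; 18% of genes) and 0 higher (13.1% of genes). In E5.5 endoderm 4 of 7 were higher than in epiblast (Esrra, Esrrg, Prdm1 and Ncoa3; 28.9% of genes). The lists share genes, so their counts are not independent. Dppa3 and Nr5a2 are also naive partners, and Prdm1 is both a germ cell factor and a relative.

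Across 20 profiles, each a class of at least 30 cells in 1 library, the genes most like each member were named by the Pearson correlation of log2(CPM + 10). For Esrrb they were Ranbp17 (0.95), Bmp4 (0.89), a signal of the extraembryonic ectoderm, and Arglu1 (0.88). For Tfcp2l1 they were Fbxo15 (0.95), Epb41l1 (0.94) and Akap1 (0.93), and for Tbx3 they were Prss35 (0.97), Mreg (0.97) and Gata6 (0.96), an endoderm marker that helped to name the clusters. For Zfp42 they were Gpat3 (0.92), Pdgfa (0.89) and Zswim1 (0.88), for Nr0b1 Adrb3 (0.95), Trh (0.93) and H2-M5 (0.92), and for Prdm14 Ly6g6e (0.99), Gm47944 (0.99) and Rbfaos (0.99). Among the members the highest correlation was that of Esrrb and Zfp42 (0.73), Tfcp2l1 and Tbx3 gave 0.60, and Esrrb and Tbx3 gave -0.03. Prdm14 was at 17.7 CPM in inner cells, 4.07 CPM in E4.5 epiblast and at most 0.572 CPM in the other profiles. Its correlations thus rest mainly on the inner cells. Nr0b1 was low as well, with its highest level at 13.9 CPM. The profiles share libraries and cell classes and differ in depth, so these values describe the 20 profiles and carry no test.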

How the data were processed

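Single cells of whole embryos were measured in 6 libraries, 1 per stage. The deposited files hold UMI counts per gene and cell barcode, which the authors made with Cell Ranger 7.1.0, a version read per the file headers. Builds mm10 and GRCm38 stand in the submitters' processing notes, and so does hg38, with no stated role. Counts were used as deposited.

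Cells with at least 1500 genes and at most 15% of UMIs from 13 mitochondrial genes were kept, and the highest Scrublet scores were removed as doublets (0.8% per 1000 cells, at most 8%, 1036 cells in all). Cells were clustered with scanpy 1.11.5 on 2000 variable genes without the members (2 of which were among them), with 30 principal components, 15 neighbours, Leiden resolution 1.0 and no integration, giving 26 clusters. A cluster took the type whose markers had the highest mean log2 level over the mean of all clusters. At least 3 markers of that type had to reach 2-fold over this mean. The unnamed cluster had 6 uterine epithelium markers at 2-fold but shallow cells, at 0.278 of the median depth of their stage. It also had none of these markers among its 10 leading genes, and these 2 traits together left it unnamed. Clusters with 4 or more markers of another lineage at 2-fold were set aside as mixed, a limit chosen after seeing the clusters. The exception was an epiblast-led cluster whose other markers were those of endoderm, which was named inner cells. Cluster 1 met this exception, with 4 markers of another lineage at 2-fold. Trophoblast clusters were split by their mean scores for extraembryonic ectoderm and ectoplacental cone markers. A gap of at least 1 on the log2 scale named the kind, also a limit chosen after seeing the clusters. The extraembryonic ectoderm-like clusters lay near it, with scores of 1.909 and 0.887 (cluster 8) and 1.829 and 0.72 (cluster 9). The ectoplacental cone-like cluster 6 had 0.681 and 2.317. Trophoblast leaves out giant cells, and endoderm pools endoderm-led and parietal-led clusters.

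Raw UMIs were summed per class and library and scaled to CPM (counts per 1000000 UMIs of the class). Intervals are exact at 95% (Poisson for CPM, conditional binomial for ratios, Clopper-Pearson for shares) and cover counting error only. A class at 0 UMIs was set at 3 counts over the class for bounds. Changes were counted at 2-fold with at least 10 CPM in the higher class, over all genes, and list medians use log2(CPM + 10). Named genes are the 6 members, the 4 most abundant genes of each list in the class described, and the 3 genes most like each member among those with at least 20 CPM in some profile. Only the 2-fold rule and the ratio intervals were tested on simulated data, with Poisson counts of classes already set. Filters, clustering, naming, free RNA and differences between libraries were not part of that test. The members and lists were chosen with earlier results of these data known. Alternatives were other scalings, filters, clusterings and libraries. Promoter sequences come from RefSeq (GRCm38.p6) and gene positions from GENCODE (GRCm38).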

Additional observations from a re-analysis of the deposited data

Results flagged for a closer look

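Tfcp2l1 moved differently with stage in the 3 lineages. In E5.5 against E4.5 cells the ratio was 2.18 in endoderm, 0.338 in trophoblast and 0.0429 in epiblast. This difference between lineages was not tested, since each stage is 1 library.

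The mixed clusters, which carried markers of several lineages and were left out of every comparison, also held members. From E4.75 to E5.5 (4 stages) their Esrrb level was 22.8, 21.5, 22.8 and 25.0 CPM, and their Tfcp2l1 level was 31.8, 26.8, 28.9 and 23.5 CPM. Tbx3 was at 38.2, 49.4, 53.7 and 42.5 CPM there, and Zfp42 at 135, 103, 86.6 and 96.3 CPM. Nr0b1 had 1.88 CPM at E5.5. These levels pool clusters in which different lineages scored highest: trophoblast in cluster 7, endoderm in clusters 18 and 22, and parietal endoderm in cluster 25. The pooled levels do not tell whether the same cells held both Esrrb and Tbx3. The mixed clusters held 35, 122, 64 and 1651 cells at the 4 stages, and how far doublets enter them was not tested.

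The unnamed cluster led by Crct1, Prap1 and Gjb2, which no comparison used, held Tfcp2l1 at 1755, 1287 and 1703 CPM at E4.75, E5.0 and E5.25. Its cells had median depths of 7300, 5667 and 6300 UMIs.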

How the results depend on the processing

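No paired analysis was possible because each stage is 1 library and no replicate numbers join samples. Of 733 ratios of single members recomputed under other settings, 50 moved by over 1.5 times and none of those counted as changed turned its direction. The count of members lower in E5.5 than in E4.5 epiblast was 1 with the E4.75 library instead of E4.5, 6 with no minimum level and 5 under the other alternatives. For E5.25 against E4.75 epiblast the count of 1 was 2 with totals that leave out mitochondrial and ribosomal genes and 5 with no minimum level. The count of 2 changed members in E5.5 against E4.5 endoderm was 1 under median-of-ratios scaling, with the mixed clusters kept and with E5.25 in place of E5.5, 0 with each library clustered alone and with E4.75 instead of E4.5, and 5 with no minimum level. The count of 1 in trophoblast was 2 under median-of-ratios scaling and 3 with no minimum level or with the mixed clusters kept. With no minimum level, 5 members rather than 3 were higher in trophoblast than in epiblast at E5.5, and 3, 3 and 4 rather than 1 were higher in extraembryonic ectoderm than in ectoplacental cone at E5.0, E5.25 and E5.5. That count was 2 at E5.0 with a mitochondrial limit of 10% and 2 at E5.25 with the members kept for clustering. Ratios of lowly counted members moved most: with each library clustered alone, Esrrb in E5.5 over E4.5 endoderm was 1.74 rather than 0.0823, a turn of direction in a gene under 10 CPM at both stages as reported, and with the mixed clusters kept, Esrrb in endoderm over epiblast at E5.5 was 3.93 rather than 0.487, and with the members kept for clustering Tbx3 in extraembryonic ectoderm over ectoplacental cone at E5.5 was 0.382 rather than 3.40. With each library clustered alone, Esrrb in trophoblast over epiblast at E5.5 was 6.52 rather than 30.7 and Tbx3 in endoderm over epiblast 47.8 rather than 88.0. The causes of these moves were not tested. Keeping the mixed clusters and exchanging libraries were alternatives chosen after seeing the data. With a minimum of 1000 genes the E3.5 cells were all named trophoblast, so the values of inner cells could not be recomputed there. The E5.5 library, with a median of 5104 UMIs per cell, limits the shares of cells with a UMI, and the 42 and 44 cells of E3.5 limit every value of that stage.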
